A study of Homo sapiens with 94 samples.

Results

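The actin cytoskeleton and SRF target genes are 39 genes picked by name, SRF (serum response factor) itself and 38 genes for actins, actin-binding proteins, myosin II subunits and focal adhesion proteins, among the 20257 gene IDs in the table. All 39 were found by symbol, and 37 passed the filter on low values and were tested. RNA was sequenced from subcutaneous tumors of NCI-H226, a human malignant pleural mesothelioma cell line, grown in female SCID mice, which lack T and B cells. Each mouse bore the same line, so the tumors differ by mouse and not by patient. The mice received 1 dose of K-975, an inhibitor of the TEAD transcription factors through which the coactivator YAP1 acts, and tumors were taken in 3 separate studies at 1 h, at 3 to 6 h or at 24 h. Each study held 5 untreated mice, vehicle mice and K-975 mice at 30, 100 or 200 mg/kg.

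At 1 h and 24 h each treatment was 1 cage of 5 mice, except that the 24 h vehicle group held 4 tumors. At 3 to 6 h each treatment was 2 cages of 5, and the labels do not say which cage was taken at 3 h and which at 6 h. The dosing volume was 20 mL/kg for vehicle and for the 200 mg/kg mice and 10 mL/kg for the other doses, so the lower doses and their volume cannot be told apart. A cage and its treatment cannot be told apart at 1 h and 24 h. The p-values rest on the spread between tumors within cages, pooled over all groups of the 3 studies, and not on a spread between cages. Values are FPKM, fragments of a gene scaled to its length and to the library total, so levels are per length. The libraries were enriched with capture probes, which can also set levels between genes.

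SRF binds a short DNA element, the CArG box, in promoters of actin and actin-binding genes. Its coactivators, the myocardin-related transcription factors, are held by free actin monomers, so that building filaments releases them to act with SRF. Tension on the same filaments also governs YAP1, and the classical TEAD targets CCN1 and CCN2 are therefore given here for reference. They are unrelated to the calponins CNN1, CNN2 and CNN3, in spite of the similar symbols.

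Promoter sequence from RefSeq (build GRCh38.p14, windows of 250 bases before to 50 after each listed start) was held for 35 of the 39 genes, in 72 windows. ACTB, TAGLN, MYL9 and CTTN had no entry. A CArG box was counted on either strand where CC and GG framed 6 bases that were each A or T. It was present in 13 of the 72 windows (18.1%), against 1.29% of all 35116 windows. These belonged to 11 genes: SRF, ACTG1, ACTG2, CNN2, TPM4, MYLK, ACTN1, FLNA, TGFB1I1, FHL1 and FHL2. CArG boxes are known in genes of this class, and the share describes the list and says nothing of binding by SRF. The stretches below are those of SRF and of 6 further genes, 3 that were lower after K-975 (CNN2, ACTN1, FHL2) and 3 that did not pass the test (ACTG1, FLNA, FHL1), with each box in capitals.
SRF, chr6:43171224-43171268, plus strand: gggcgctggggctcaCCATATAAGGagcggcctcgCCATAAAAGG
CNN2, chr19:1026504-1026543, plus strand: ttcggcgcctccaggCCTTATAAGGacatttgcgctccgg
ACTN1, chr14:68977713-68977752, minus strand: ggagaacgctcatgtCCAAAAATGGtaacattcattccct
FHL2, chr2:105438590-105438629, minus strand: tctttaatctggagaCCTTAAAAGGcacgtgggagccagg
FHL2, second start, chr2:105399086-105399125, minus strand: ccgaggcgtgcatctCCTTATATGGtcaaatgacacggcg
ACTG1, chr17:81512869-81512908, minus strand: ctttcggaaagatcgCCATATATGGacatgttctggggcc
FLNA, chrX:154374704-154374743, minus strand: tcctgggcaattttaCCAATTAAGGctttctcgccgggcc
FHL1, chrX:136196906-136196945, plus strand: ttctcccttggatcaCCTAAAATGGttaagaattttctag

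The SRF stretch ended at its start site and held boxes beginning 30 and 10 bases before it. In ACTG1 and FLNA the box began 94 bases before the start, and in CNN2 it began 89 bases before. In ACTN1 the box began 171 bases before an internal start, that is 1 of 4 windows of that gene, and GGAATG or its reverse complement CATTCC, the core of the TEAD motif, began 154 bases before the same start, outside the box. GGAATG or CATTCC was found in 16 of the 72 windows (22.2%), belonging to 15 genes, against 14% of all windows. None was found for CCN1, and whether CCN1 had a window is not given here. In the CCN2 window the motif began 169, 104 and 95 bases before the start, shown here in capitals as the TEAD reference.
CCN2, chr6:131951447-131951556, minus strand: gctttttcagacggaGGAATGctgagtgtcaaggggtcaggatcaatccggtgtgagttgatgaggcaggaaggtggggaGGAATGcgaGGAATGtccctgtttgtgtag

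In the 34 untreated and vehicle tumors the levels of the 37 genes spanned a wide range of FPKM. CNN3, a calponin that binds actin filaments outside muscle, had the highest median at 2220 FPKM (lowest tumor 1710, highest 2530). FLNA, which crosslinks filaments into networks, followed at 1340 FPKM (1140 to 1530), and ACTB, cytoplasmic beta-actin, at 635 FPKM (520 to 724). The next in order, MYL6, MYH9, TAGLN2 and TPM1, had medians of 542, 511, 489 and 488 FPKM, and their ranges over tumors overlapped. ACTG1, cytoplasmic gamma-actin, had a median of 259 FPKM (223 to 291), below every ACTB value.

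The genes usually tied to smooth muscle were lower. ACTA2, smooth muscle alpha-actin, had a median of 18.7 FPKM (11.1 to 26.7), CNN1, the smooth muscle calponin, of 13 FPKM (7.16 to 18.7), and TAGLN, transgelin, of 81.7 FPKM (49.7 to 109). SRF had a median of 9.14 FPKM (6.63 to 13.3) and MYLK, the myosin light chain kinase, of 8.77 FPKM (3.91 to 30.4), the lowest of the 37. ACTG2, enteric gamma-actin, and LMOD1, a smooth muscle leiomodin, did not pass the filter. ACTG2 was listed at 0 in 86 of 91 libraries with a highest value of 0.591 FPKM, and LMOD1 was listed at 0 in 87 with a highest value of 0.117 FPKM.

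**Figure D1:**
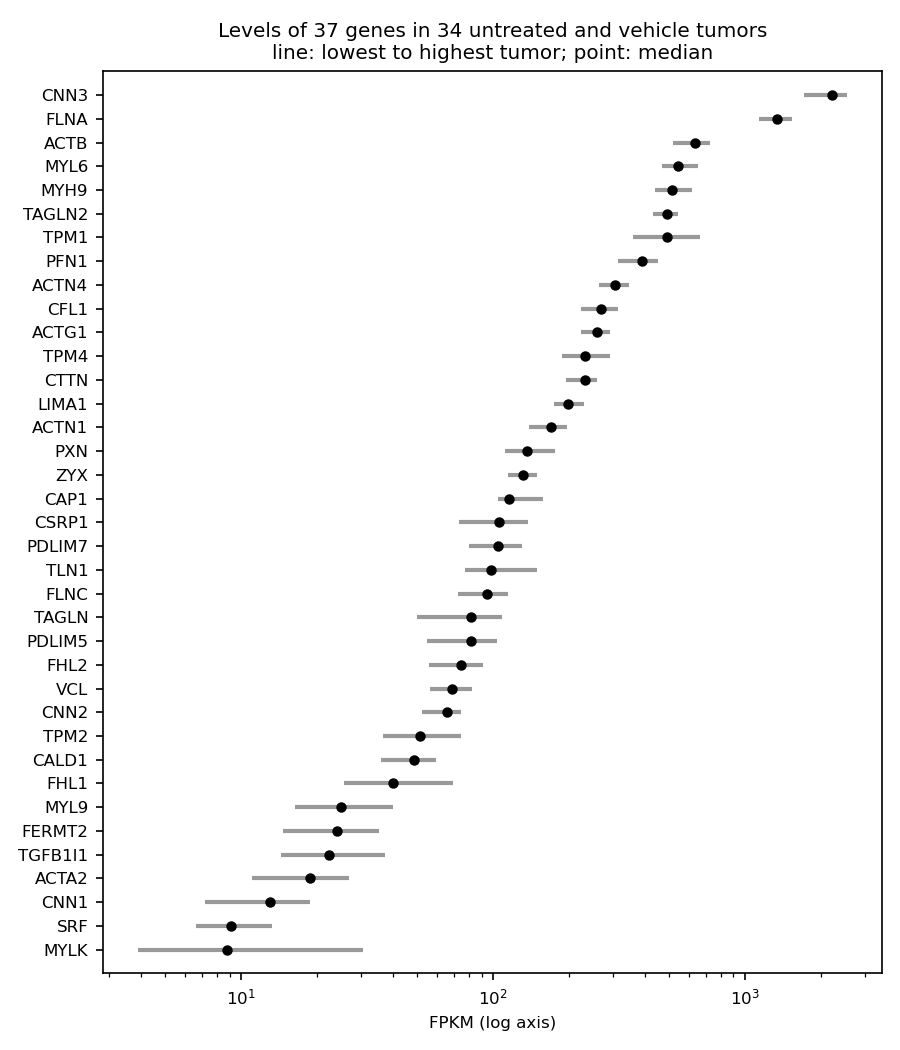
FPKM on a log axis (x) of the 37 tested genes (y) in the 34 untreated and vehicle tumors, with lines from the lowest to the highest tumor and points at the median. CNN3 at 2220 FPKM and MYLK at 8.77 FPKM are the ends of the order.

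The spread between tumors also differed between genes. Within the control groups the SD on the log2(FPKM + 1) scale was 0.07 for FLNA and ACTG1, 0.11 for ACTB and CNN3, 0.24 for TAGLN, 0.34 for CNN1 and 0.55 for MYLK. The 4 actin genes are close copies: over 1098 coding bases ACTB and ACTG1 were 91.5% identical in GENCODE 29 transcripts, with identical runs of up to 59 bases, and ACTB and ACTA2 were 82.9% identical. How reads in such runs were assigned, and how reads of the mouse host were handled, was not given in the sources used here, so single actin levels are uncertain to that extent.

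The labelled cell type was checked against marker genes. Of 7 mesothelial markers 6 were above 0 in each of the 91 libraries used, with median FPKM of 878 for KRT5, 612 for CALB2, 479 for KRT19, 255 for MSLN, 57.4 for PDPN and 29.1 for WT1. The other one, UPK3B, had a median of 1.5 FPKM and was listed at 0 in 3 libraries. Of the smooth muscle markers, MYH11, smooth muscle myosin, was listed at 0 in 69 of 91 libraries with a highest value of 0.112 FPKM, and DES, desmin, reached 1.67 FPKM. PDGFRB, also made by fibroblasts and pericytes, had a median of 32 FPKM. In the same list NOTCH3, CSPG4 and SYNM were above 0 in all 91 libraries, with medians of 6.17, 4.18 and 2.1 FPKM. RGS5 was listed at 0 in 12 and reached 17.5 FPKM (median 1.43). Of the fibroblast markers, DPT was listed at 0 in all 91 libraries and COL1A1 had a median of 560 FPKM. The endothelial markers were mixed: EMCN was listed at 0 in all 91 libraries and PECAM1 in 79, VWF and CDH5 had medians of 0.989 and 1.09 FPKM, and KDR had a median of 63.9 FPKM (23.1 to 135). So were the leukocyte markers, with AIF1 listed at 0 in all 91 libraries, PTPRC at a median of 0.168 FPKM and CD68 at 139 FPKM. The skeletal muscle markers were low but not all absent. CKM was listed at 0 in all 91 libraries, MYH1 in 86, ACTN3 in 75, MYLPF in 61, MYH2 in 43 and TNNT3 in 27. MYLPF and TNNT3 reached 5.29 and 3.01 FPKM. In these bulk samples fewer cells of a type and less RNA per cell cannot be told apart.

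K-975 at 200 mg/kg was compared with vehicle at 24 h to see which of the 39 genes changed while TEAD was inhibited. 7 of the 37 tested genes were lower and 0 were higher: ACTB, TAGLN, CNN1, CNN2, ACTN1, FHL2 and LIMA1. Over all 13036 genes tested, 7.41% passed in either direction and 3.61% were lower, so the share of these genes that was lower, 7 of 37, lay above that of the table. The median log2 fold change of the 37 was -0.144, beside 0.037 over all genes. After quantile normalization these medians were -0.075 and 0.006, and 5 of the 37 were lower. As a reference, FPKM + 1 fell by 58.3% for CCN1 (log2 fold change -1.26, SE 0.20, adjusted p = 1.23e-05). It fell by 63.3% for CCN2 (-1.44, SE 0.21, adjusted p = 2.11e-06). Both genes were below every vehicle tumor in 5 of 5 tumors. Adjusted p-values throughout are from limma with Benjamini-Hochberg adjustment over all genes tested.

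TAGLN, which bundles actin filaments, lies at chr11:117199321-117204782 (GRCh38). It stood at 74.4, 79, 102 and 72.6 FPKM in the vehicle tumors and at 49.1, 45.5, 52.2, 40 and 60 FPKM after 200 mg/kg. Every treated tumor lay below every vehicle tumor. The log2 fold change was -0.72 (SE 0.16, adjusted p = 0.00165).

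ACTN1, alpha-actinin 1, crosslinks filaments and ties them to adhesions; it lies at chr14:68874143-68979440. Its levels were 185, 189, 196 and 176 FPKM in vehicle tumors and 108, 152, 128, 132 and 124 FPKM in treated tumors. The groups did not overlap. The log2 fold change was -0.54 (SE 0.08, adjusted p = 2.11e-06), with the smallest adjusted p of the 37 genes.

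FHL2, at chr2:105357712-105438513, is a LIM-only protein found at adhesions and in the nucleus, where it can act as a cofactor of SRF. It stood at 91.1, 79.8, 78 and 77.3 FPKM in vehicle tumors and at 44, 65.1, 61.6, 58.4 and 52.9 FPKM in treated tumors, again without overlap. The log2 fold change was -0.53 (SE 0.11, adjusted p = 0.000909).

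ACTB, at chr7:5527151-5530709, was at 624, 621, 660 and 556 FPKM in vehicle tumors and at 416, 651, 438, 444 and 441 FPKM in treated tumors. 4 of 5 treated tumors lay below every vehicle tumor, and replicate 2 lay among the vehicle values. The log2 fold change was -0.38 (SE 0.08, adjusted p = 0.00153). ACTG1, its near copy, had a log2 fold change of -0.08 (SE 0.05, adjusted p = 0.419), and ACTA2 of 0.21 (SE 0.18, adjusted p = 0.537).

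CNN1 was at 13, 18, 16.5 and 8.71 FPKM in vehicle tumors and at 7.18, 11.5, 5.57, 7.5 and 5.56 FPKM in treated tumors. It had the lowest log2 fold change of the 37 genes, -0.83 (SE 0.25, adjusted p = 0.027), and 1 treated tumor overlapped with vehicle. CNN2, the neutral calponin of non-muscle cells, was at 67, 65.9, 66.5 and 56.6 FPKM in vehicle tumors and at 46.8, 55, 60, 54.4 and 56.4 FPKM in treated tumors (log2 fold change -0.23, SE 0.08, adjusted p = 0.049). LIMA1, which bundles filaments and slows their loss of subunits, was at 187, 194, 229 and 193 FPKM in vehicle tumors and at 156, 189, 177, 169 and 169 FPKM in treated tumors (-0.22, SE 0.07, adjusted p = 0.0395). In both, 4 of 5 treated tumors lay below every vehicle tumor.

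Not all 7 calls were equally firm. When each of the 9 tumors was left out in turn, ACTB, TAGLN, ACTN1 and FHL2 passed in all 9 fits. In a fit of the vehicle and 200 mg/kg tumors alone TAGLN, ACTN1 and FHL2 passed, and ACTB did not (adjusted p = 0.0936). CNN1 lost its call in 6 of 9 (vehicle 1, 2 or 3 or treated 1, 3 or 5 left out), CNN2 in 6 of 9 (vehicle 1, 2 or 3 or treated 1, 4 or 5) and LIMA1 in 6 of 9 (vehicle 2 or 3 or treated 1, 3, 4 or 5). The number of genes lower was 4 without vehicle 2, vehicle 3, treated 1 or treated 5, and it was 12 without treated 2, the tumor with high ACTB. With 3 shallow libraries of other groups kept in the fit, 0 of the 37 and 0 of all genes passed by limma (2 of the 37 had an unadjusted p under 0.05), and the log2 fold changes of the 7 genes were the same to 2 decimals.

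**Figure D2:**
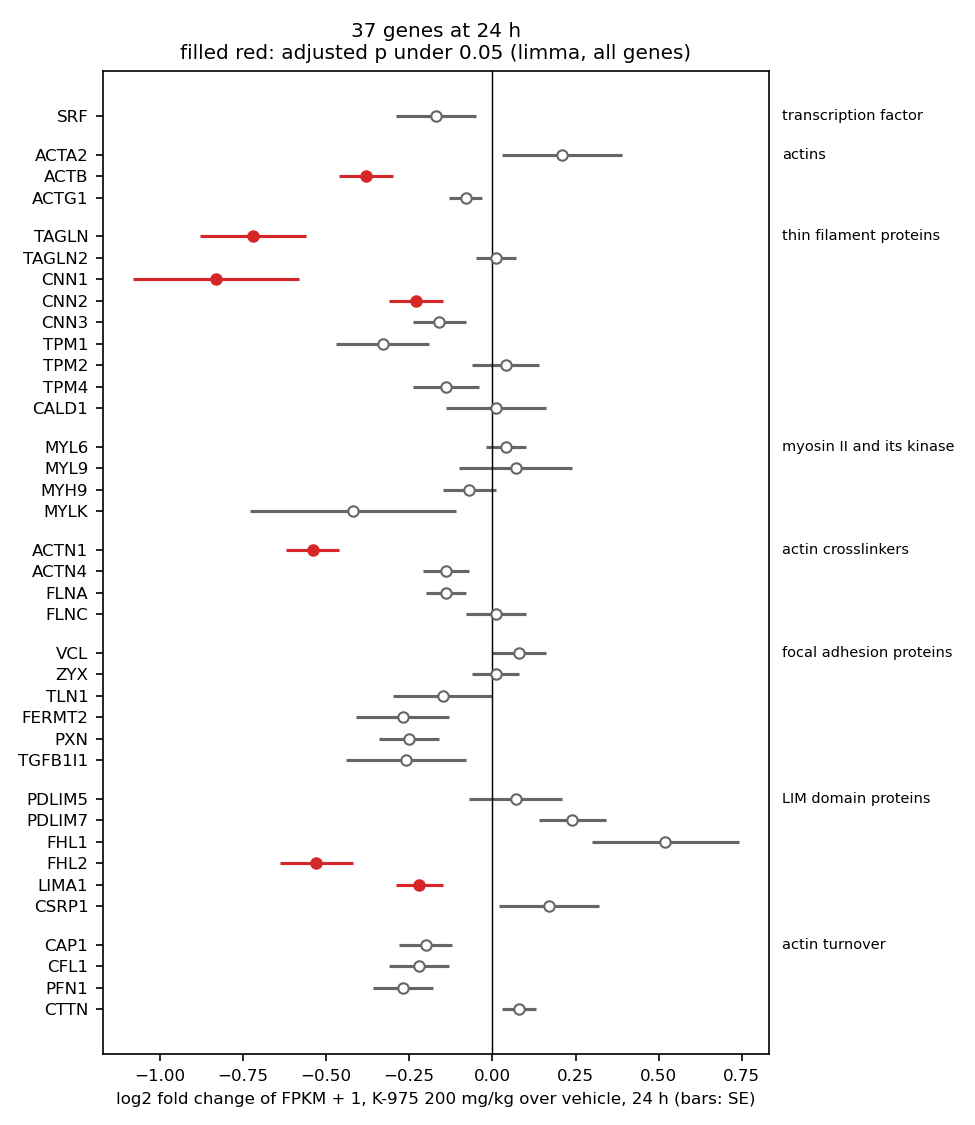
Log2 fold change of FPKM + 1 for K-975 200 mg/kg over vehicle at 24 h (x, bars show the SE) for the 37 tested genes (y), grouped by role and filled red where the adjusted p was under 0.05. The 7 filled points all lie left of 0, from -0.83 for CNN1 to -0.22 for LIMA1.

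The other 30 tested genes did not pass the test. SRF itself was at 9.52, 10.4, 10.2 and 8.18 FPKM in vehicle tumors and at 6.75, 9.5, 8.69, 8.77 and 8.3 FPKM in treated tumors. Its groups overlapped, and its log2 fold change was -0.17 (SE 0.12, adjusted p = 0.405). Among thin filament proteins TPM1, a tropomyosin that lies along the filament, had -0.33 (SE 0.14, adjusted p = 0.139), and TAGLN2, TPM2 and CALD1 lay between 0.01 and 0.04. Of 9 thin filament genes tested 3 were lower, with a median log2 fold change of -0.163.

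None of the 4 myosin II genes passed, with log2 fold changes from -0.42 for MYLK (SE 0.31) to 0.07 for MYL9. Of 4 crosslinker genes ACTN1 alone passed, and FLNA had -0.14 (SE 0.06, adjusted p = 0.129). The other two, ACTN4 and FLNC, had -0.14 and 0.01. None of the 6 focal adhesion genes passed: PXN, the adhesion scaffold paxillin, had -0.25 (SE 0.09, adjusted p = 0.0733), while VCL, which links talin to actin, and ZYX, found at adhesions under tension, had 0.08 and 0.01. TLN1, talin, had -0.15 (SE 0.15), and FERMT2, a kindlin that binds integrins, had -0.27 (SE 0.14, adjusted p = 0.266). Of 4 actin turnover genes none passed, although PFN1 (profilin, which speeds the exchange of ADP for ATP on actin), CFL1 (cofilin, which severs filaments) and CAP1 had values of -0.27, -0.22 and -0.20, with adjusted p of 0.059, 0.123 and 0.106.

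Of 6 LIM domain genes 2 were lower, FHL2 and LIMA1, and 0 were higher. FHL1 had 0.52 (SE 0.22, adjusted p = 0.143) and did not pass. FHL1 was at 26.3, 32.9, 33.5 and 37.5 FPKM in vehicle tumors and at 55.7, 37.1, 46, 47.4 and 49.1 FPKM in treated tumors, and 4 of 5 treated tumors lay above every vehicle tumor. PDLIM7 had 0.24 (SE 0.10, adjusted p = 0.149), and CSRP1 and PDLIM5 had 0.17 and 0.07. Of the 37 genes, 17 had an unadjusted p under 0.05.

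**Figure D3:**
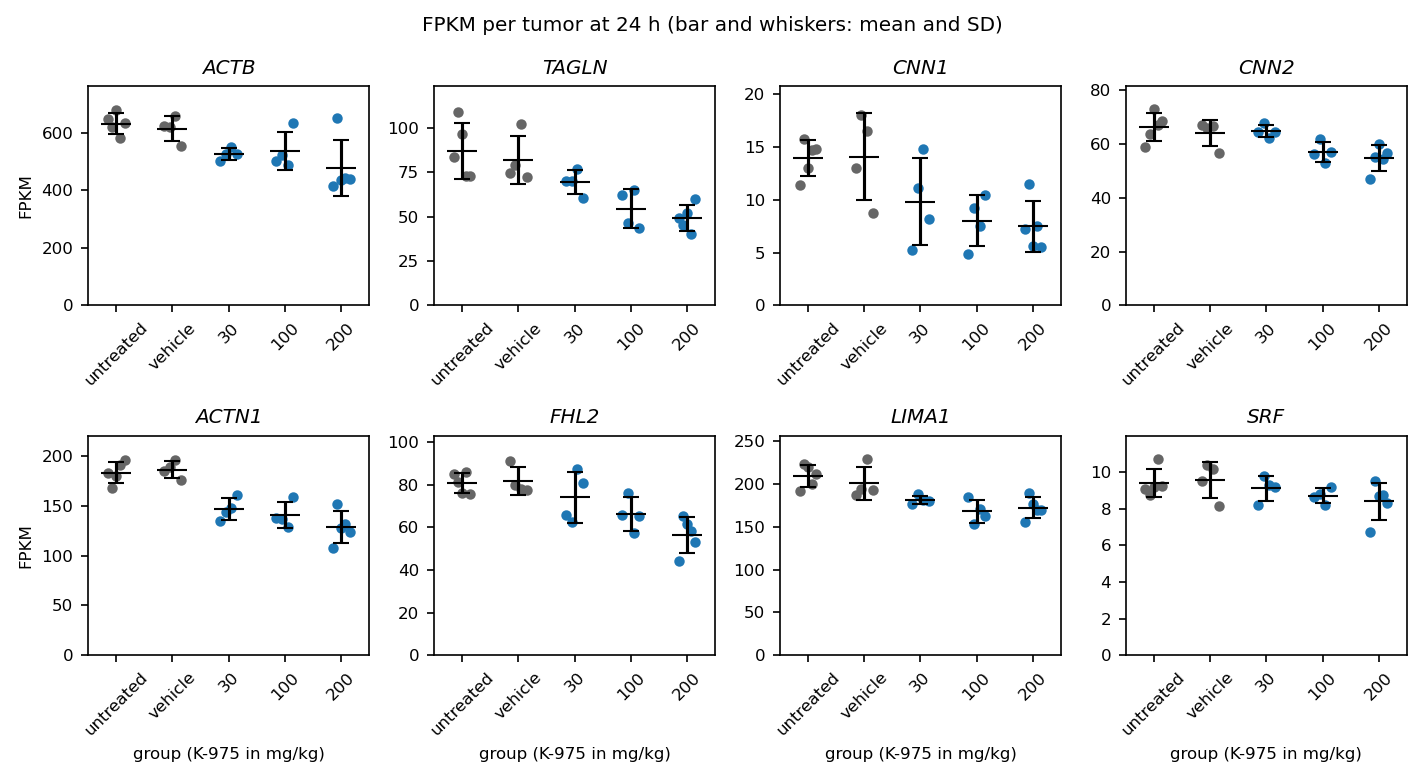
FPKM (y) of each 24 h tumor by group (x: untreated, vehicle and the K-975 doses in mg/kg) for the 7 genes that were lower and SRF, with a bar for the mean and whiskers for the SD. TAGLN, ACTN1 and FHL2 in the 200 mg/kg tumors lie below all vehicle tumors, and the single high ACTB tumor at 200 mg/kg stands at 651 FPKM.

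The lower doses at 24 h were compared with the same 4 vehicle tumors, so the 3 doses are not independent. At 100 mg/kg 3 of 37 genes were lower and 0 higher, where 1.12% of all genes passed. ACTN1 was at 138, 137, 129 and 159 FPKM in the 4 tumors used (log2 fold change -0.41, SE 0.08, adjusted p = 0.00299). PXN was at 130, 128, 111 and 133 FPKM, against 168, 170, 159 and 152 FPKM in vehicle tumors (-0.37, SE 0.09, adjusted p = 0.0253). TAGLN was at 62.3, 46.6, 65.3 and 43.4 FPKM (-0.59, SE 0.16, adjusted p = 0.0494). In all 3 the 4 treated tumors lay below every vehicle tumor. The TAGLN call was lost in 7 of 8 fits that left 1 tumor out (all but treated 1), and the PXN call in 5 of 8 (vehicle 1, 2 or 3 or treated 2 or 3). Only ACTN1 was left in those 5 fits. In the fit of the vehicle and 100 mg/kg tumors alone 0 of 37 passed by limma (8 had an unadjusted p under 0.05), with an adjusted p = 0.0828 for ACTN1. With the 3 shallow libraries kept 0 of 37 passed (2 at an unadjusted p under 0.05), with an adjusted p = 0.442 for ACTN1.

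At 30 mg/kg 1 of 37 genes passed, where 0.0384% of all genes did. This was CTTN, cortactin, a protein of branched actin at the cell edge, which was higher: 271, 276, 255 and 280 FPKM in the 4 tumors used, against 229, 218, 214 and 229 FPKM in vehicle tumors (log2 fold change 0.28, SE 0.06, adjusted p = 0.019). The CTTN call was lost in 5 of 8 fits that left 1 tumor out (vehicle 2 or 3 or treated 2, 3 or 5), and its log2 fold change was 0.08 at 200 mg/kg. ACTN1 had -0.34 at 30 mg/kg (SE 0.08, adjusted p = 0.0784).

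Group means fell at each step from vehicle through 30 and 100 to 200 mg/kg in 11 of the 37 genes (29.7%), among them SRF, TAGLN, CNN1, TPM1, ACTN1, FHL2 and CAP1, and rose at each step in 0. Over all genes 7.48% fell and 9.11% rose at each step. These orders are a description that rests on 1 vehicle group. Set directly against 100 mg/kg, 200 mg/kg gave 0 of 37 calls and 0% over all genes by limma, with 5 of the 37 at an unadjusted p under 0.05. CCN1 and CCN2 had values of -0.68 and -0.79 at 100 mg/kg, with adjusted p of 0.0859 and 0.05, which did not pass.

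At 3 to 6 h none of the 37 genes passed at any dose. Of all genes tested, 0.069%, 0.43% and 0.0153% passed, from the highest dose to the lowest. Of the 37, 4, 6 and 5 had an unadjusted p under 0.05 in the same order. CCN1 and CCN2 were lower at 200 mg/kg by then, with log2 fold changes of -0.72 (SE 0.13, adjusted p = 0.00223) and -0.63 (SE 0.14, adjusted p = 0.0338), of which the CCN2 call was lost in 12 of 20 fits that left 1 tumor out. FHL2 came closest to the threshold: its 10 vehicle tumors ranged from 55.6 to 79.5 FPKM (median 71.6) and its 10 tumors at 200 mg/kg from 41.2 to 69 FPKM (median 55.1), a log2 fold change of -0.30 (SE 0.07, adjusted p = 0.0607). The groups overlapped. Against both vehicle cages together, FHL2 passed in treated cage 5 alone (-0.38, adjusted p = 0.0354) and not in treated cage 4 alone (-0.23, adjusted p = 0.916). It passed in 4 of the 20 fits that left 1 tumor out (vehicle cage 2 tumor 1 or 2, treated cage 4 tumor 3 or treated cage 5 tumor 5). TAGLN ranged from 49.7 to 100 FPKM in vehicle tumors and from 68.2 to 92.1 FPKM at 200 mg/kg, with medians of 80.6 and 81 FPKM.

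At 1 h 0 of 37 genes passed at each dose, as did 0%, 0.00767% and 0% of all genes at 200, 100 and 30 mg/kg. The numbers with an unadjusted p under 0.05 were 0, 1 and 0. ACTN1 was at 176, 175, 188, 183 and 156 FPKM in vehicle tumors and at 184, 177, 183 and 168 FPKM in the 4 tumors used at 200 mg/kg, which overlapped.

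**Figure D4:**
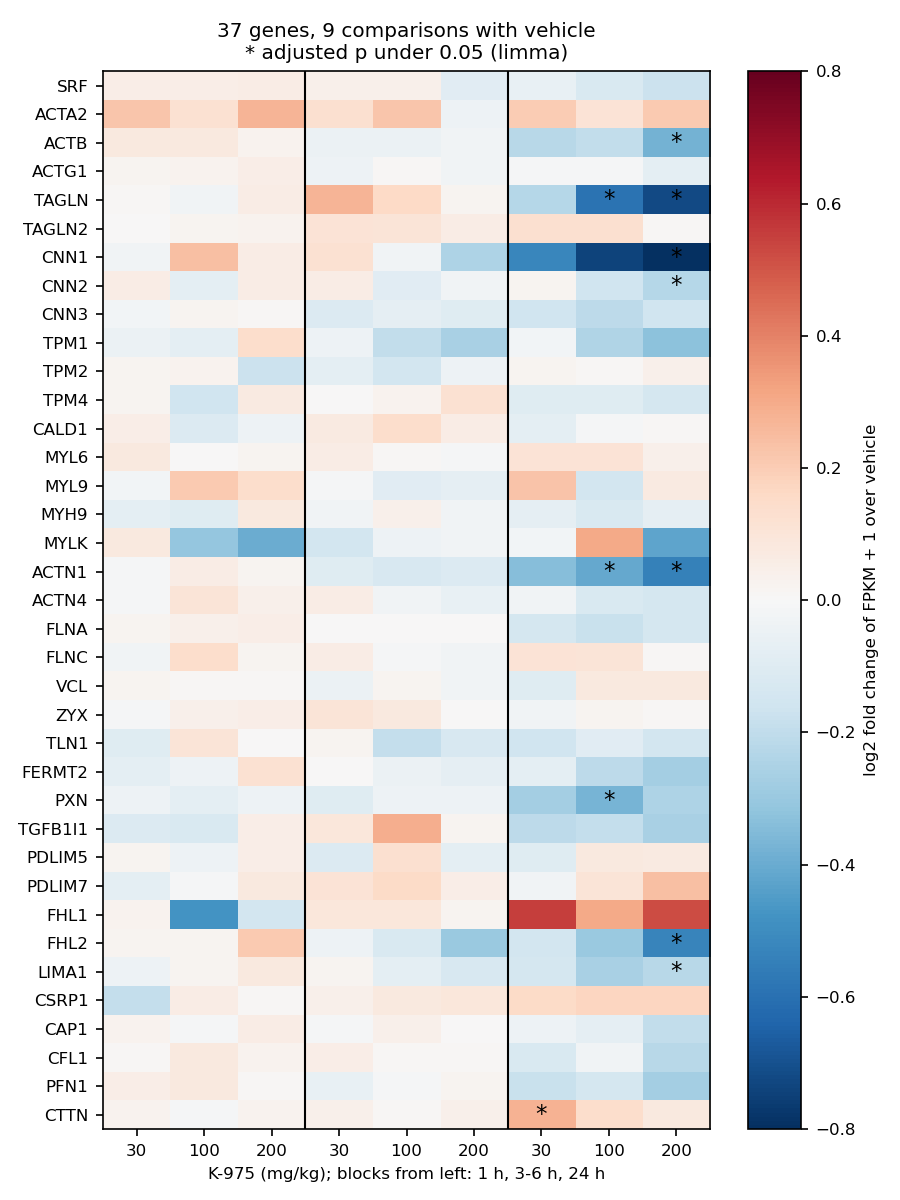
Log2 fold change of FPKM + 1 over vehicle (color) for the 37 tested genes (y) at each K-975 dose in mg/kg (x) in blocks for 1 h, 3-6 h and 24 h, with a star where the adjusted p was under 0.05. All 11 stars stand in the 24 h block, 7 of them at 200 mg/kg.

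A change of the 200 mg/kg effect with time was tested on the difference itself. Study and time coincide, so they cannot be told apart. Against 1 h, 2 of 37 genes differed, where 0.583% of all genes did: ACTN1 by -0.56 (SE 0.11, adjusted p = 0.00382) and FHL2 by -0.74 (SE 0.16, adjusted p = 0.00889) on the log2 scale. Against 3 to 6 h, 3 of 37 differed, where 1.72% of all genes did: ACTN1 by -0.43 (SE 0.09, adjusted p = 0.00824), TAGLN by -0.74 (SE 0.19, adjusted p = 0.0228) and ACTB by -0.36 (SE 0.10, adjusted p = 0.0397). For CCN1 the difference between 24 h and 3 to 6 h was -0.54 (SE 0.24, adjusted p = 0.237) and did not pass. The fall of CCN2 was also larger at 24 h than at 3 to 6 h, and the test of that difference is not reported here. The ACTB difference lost its call in 13 of 29 fits that left 1 tumor out (24 h vehicle 1, 2 or 3, 24 h treated 1, 3, 4 or 5, 3-6 h vehicle cage 2 tumor 1 or 4, treated cage 4 tumor 3 or treated cage 5 tumor 1, 2 or 3), and the TAGLN difference in 3 of 29 (24 h vehicle 3 and 24 h treated 1 or 4).

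**Figure D5:**
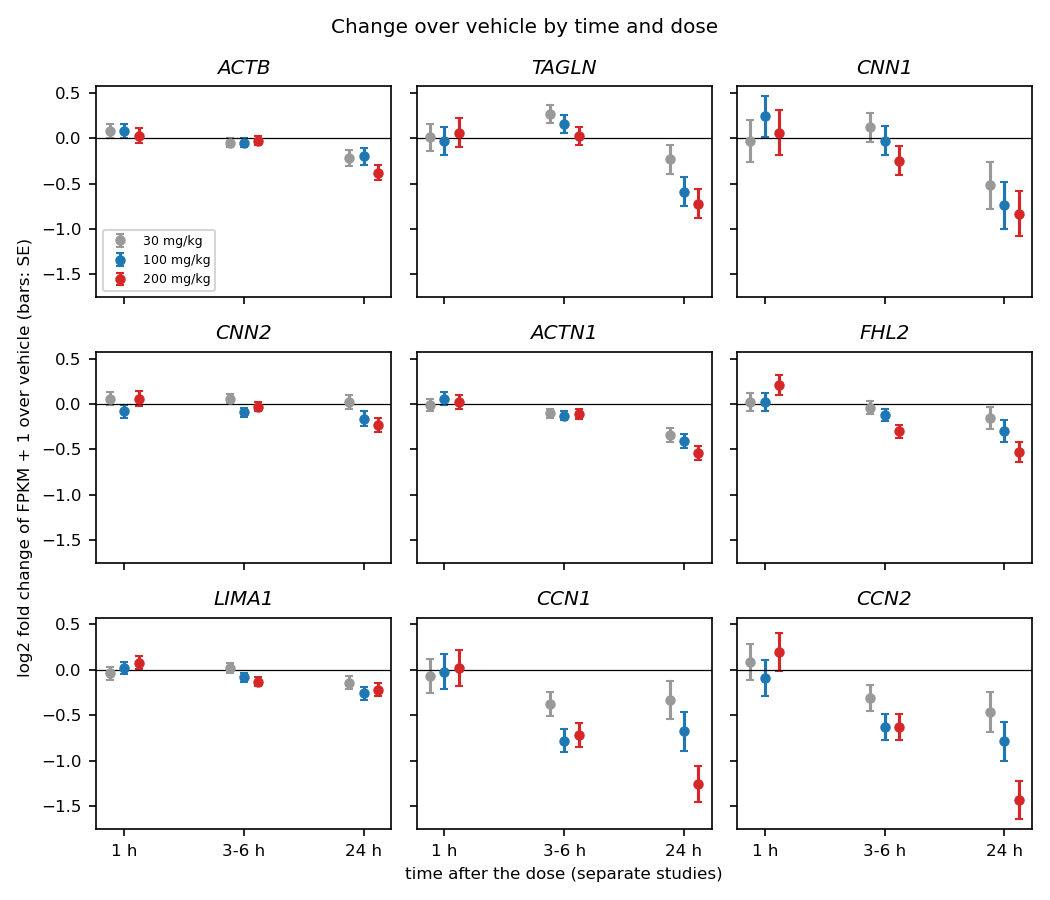
Log2 fold change of FPKM + 1 over vehicle (y, bars show the SE) by time after the dose (x, separate studies) at 30 (gray), 100 (blue) and 200 mg/kg (red) for the 7 genes lower at 24 h and for CCN1 and CCN2. At 200 mg/kg TAGLN stands at 0.06 at 1 h and -0.72 at 24 h, whereas CCN1 is at -0.72 at 3-6 h.

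Vehicle was also compared with untreated tumors, as a background. 0 of 37 genes passed at 24 h, at 3 to 6 h and at 1 h by limma (1, 2 and 1 had an unadjusted p under 0.05), and 0%, 0% and 0% of all genes passed. With untreated tumors in place of vehicle as control, 12 of the 37 genes were lower at 24 h after 200 mg/kg and 0 higher, with a median of -0.157 on the log2 scale. Over all genes 8.31% passed in either direction and 3.79% were lower in that comparison.

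Genes outside the 39 were read in the same comparison of 200 mg/kg with vehicle at 24 h. Of 37 further actin and adhesion genes, 35 were tested, 1 was higher and 2 were lower. Over all 13036 genes tested 7.41% passed in either direction and 3.61% were lower. The calls in this list were thus close to the share of the table. GSN, gelsolin, which cuts and caps filaments, had 1.27 (SE 0.20, adjusted p = 7.78e-06), ANLN, anillin, a protein of the cleavage furrow, -0.83 (SE 0.19, adjusted p = 0.0024) and MYL12B, a myosin regulatory light chain, -0.26 (SE 0.08, adjusted p = 0.0286, lost without vehicle 1 or 3 or treated 1, 4 or 5). Of 8 immediate early SRF targets 7 were tested and 0 passed, with 0 at an unadjusted p under 0.05. So short a list cannot be told apart from the share over all genes. FOS and EGR1 had -0.23 and -0.58, with adjusted p of 0.776 and 0.311.

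Marker levels in the same tumors were as follows. The summed FPKM of 7 mesothelial markers ranged from 1970 to 2010 in the vehicle tumors and from 2260 to 3140 at 200 mg/kg. In the 24 h untreated tumors it ranged from 1640 to 2580, which overlapped with the treated tumors. Against vehicle 3 of the 7 were higher, where 7.41% of all genes passed in either direction. These were MSLN, CALB2 and KRT19, with log2 fold changes of 0.40, 0.39 and 0.32. The part of these markers in the lower actin-binding genes was not tested. The sum of 7 smooth muscle and pericyte markers ranged from 42.1 to 47.5 in vehicle tumors and from 34.6 to 50.8 at 200 mg/kg, and the sum of 6 fibroblast markers from 841 to 1040 and from 752 to 1390. In both lists the groups overlapped, and 0 of the 5 markers tested in each passed. Sums of 6 endothelial, 6 leukocyte and 6 skeletal muscle markers also overlapped. Of these only 3, 4 and 2 markers reached the filter on low values and were tested, and 0 were called.

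Whether these genes moved together from tumor to tumor without the drug was tested in 6 pairs over the 34 control tumors, centred within each group. None of the 6 passed. SRF and VCL had Pearson's r = 0.21 (permutation p = 0.227, adjusted p = 0.816) and a Spearman coefficient of 0.24 (permutation p = 0.182, adjusted p = 0.754). SRF and ACTB had r = 0.14 (permutation p = 0.496, adjusted p = 0.816) and a Spearman coefficient of 0.08 (permutation p = 0.695, adjusted p = 0.82), and within the studies r was 0.76 at 1 h, -0.31 at 3 to 6 h and 0.21 at 24 h. ACTB and ACTG1 had r = 0.05 (permutation p = 0.816, adjusted p = 0.816) and a Spearman coefficient of 0.18 (permutation p = 0.377, adjusted p = 0.754), and ACTA2 and TAGLN had r = 0.05 (permutation p = 0.751, adjusted p = 0.816) and a Spearman coefficient of 0.08 (permutation p = 0.64, adjusted p = 0.82). ACTA2 and CNN1 had r = -0.07 (permutation p = 0.699, adjusted p = 0.816) and a Spearman coefficient of -0.04 (permutation p = 0.82, adjusted p = 0.82), and TAGLN and CCN1 had r = -0.15 (permutation p = 0.416, adjusted p = 0.816) and a Spearman coefficient of -0.21 (permutation p = 0.258, adjusted p = 0.754). After leaving out the 2 tumors that lay farthest from the first gene's median, r was 0.39 for SRF and VCL, 0.37 for SRF and ACTB and between -0.14 and 0.20 for the other pairs.

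3 of the 39 genes, TAGLN, TPM1 and CNN3, are on the study's own list of positive YAP1/TEAD effectors, which was drawn from other data sets, and 0 are on its negative list. At 24 h after 200 mg/kg TAGLN was lower, and TPM1 and CNN3 had -0.33 and -0.16, with adjusted p of 0.139 and 0.184. Of GSN, ANLN, MYL12B, FOS and EGR1, named above from outside the 39, GSN and FOS are on the negative list. GSN was higher in that comparison and FOS did not pass. COTL1 and NEXN, among the further actin and adhesion genes, are on the positive list and were not called lower.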

How the data were processed

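The authors sequenced RNA of 94 tumors after capture with target enrichment probes and deposited 1 table of FPKM values. The submitters' processing notes name STAR and GRCh38. The counting tool, the annotation and the handling of mouse reads are not given in the sources used here, and the table holds no counts, so depth is unknown. Of 20555 rows, 298 further rows of 266 gene IDs were left out (the row with the highest mean was kept, which for CFL1 is the second of its rows), and 32 blank cells were read as 0. 3 libraries with under 10000 genes at an FPKM of 1 or more were left out: 30 mg/kg at 24 h replicate 1 (702 genes), 100 mg/kg at 24 h replicate 5 (7196) and 200 mg/kg at 1 h replicate 1 (8531). The other 91 had 11344 to 11665 such genes. Replicates are numbered in accession order.

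Groups were taken from the labels. The 13036 genes that reached an FPKM of 1 in 4 or more libraries were transformed to log2(FPKM + 1), which understates changes of low genes, and fitted in 1 model with a coefficient per group with limma 3.58.1 in R 4.3.3 (empirical Bayes, trend and robust). Tests were two-sided, with Benjamini-Hochberg adjustment over all genes tested at a threshold of 0.05. At 3 to 6 h the means of the cages of each treatment were compared. A fit of a treated cage alone still used the mean of both vehicle cages. Correlations used 100000 permutations within groups. All 39 genes were named, with CCN1 and CCN2, the genes of the other lists that passed at 200 mg/kg (at most 5 a list), and the highest and defining markers. FOS and EGR1, and part of the smooth muscle and skeletal muscle markers, were named after their values were seen. COTL1 and NEXN were named for their place on the study's positive list. 1 further gene list is not reported here. Members and lists were chosen with earlier results of these data known. The table's gene loci overlapped the GENCODE 29 gene of the same symbol for all 39, with starts counted from 0 in the table and from 1 here.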

Additional observations from a re-analysis of the deposited data

Results flagged for a closer look

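2 tumors stood apart from the others of their group at 24 h. ACTB was 651 FPKM in replicate 2 at 200 mg/kg, and the nearest of the other 4 was 444 FPKM. The same tumor was also the highest at 200 mg/kg for CCN1, CCN2, CNN1, ACTN1, FHL2 and LIMA1, and not for TAGLN and CNN2. CNN2 was 56.6 FPKM in vehicle replicate 4, and the nearest was 65.9 FPKM. 35 sets, each the values of 1 gene in 1 group, were looked at in this way, and sets of the same group share their tumors. Chance alone marks about 1 in 20, which is near the share found here. Without that ACTB tumor the log2 fold change of ACTB was -0.50 and 12 of the 37 genes were lower in place of 7.

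The effect of 200 mg/kg differed between times for 4 genes, by a test of the difference itself. At 24 h minus 1 h the log2 difference was -0.56 for ACTN1 and -0.74 for FHL2. At 24 h minus 3 to 6 h it was -0.36 for ACTB, -0.74 for TAGLN and -0.43 for ACTN1. Each time is a separate study, so time and study cannot be told apart.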

How the results depend on the processing

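No paired analysis was possible because replicate numbers were given in accession order and link no tumors between groups. In the text below counts are of genes passing, the 37 genes first, and the order of comparisons is 24 h, 3 to 6 h and 1 h.

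Of 39 results for single genes, recomputed as 860 values under the alternatives, 1 changed direction: CNN3 at 24 h after 200 mg/kg, 0.01 after quantile normalization. At 24 h after 200 mg/kg the main counts were 7 of 37 (all lower) and 966 of all genes. With all 94 libraries they were 0 and 0. In the fit of only the groups compared they were 3 (ACTN1, TAGLN and FHL2) and 324, with untreated tumors as control 12 and 1083, and with array weights on all 94 libraries, chosen after seeing the data, 13 (12 lower) and 1975. Leaving out 1 tumor gave 4 to 12 and 389 to 1537. The cause of these changes was not tested.

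At 100 mg/kg (3 and 146) all 94 libraries gave 0 and 2, the groups compared alone 0 and 9, untreated control 260 of all genes, and leaving out a tumor 1 to 4 and 30 to 290. At 30 mg/kg (1 and 5) all 94 libraries gave 20 and 2960, quantile normalization 8 of all genes, centring on the median 0 of 37, the groups compared alone 0 and 33, untreated control 2 and 46, array weights 2 and 45, and leaving out a tumor 0 to 1 and 0 to 3. The 20 rest on the library with 702 genes, with which the median of all genes was -0.646.

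At 3 to 6 h and 1 h the counts of the 37 stayed at 0 except for 2 (FHL2 and LIMA1) in cage 5 alone and 0 to 1 on leaving out a tumor, both at 200 mg/kg. All-gene counts at 200 mg/kg (9) were 0 with all 94 libraries, 0 for the groups alone, 23 with untreated control, 1 in cage 4, 36 in cage 5 and 4 to 27 without 1 tumor. At 100 mg/kg (56) they were 1, 21, 22, 0 in cage 6, 173 in cage 7 and 32 to 82. At 30 mg/kg (2) they were 1, 1, 0, 0 in cage 8, 4 in cage 9 and 1 to 3. At 1 h they ranged over settings from 0 to 4 at 100 mg/kg (1 in the main fit, 4 with no filter, 2 when centred or weighted) and from 0 to 1 at 30 mg/kg. Vehicle against untreated gave 0 to 2 and 200 against 100 mg/kg 0 to 3 genes.

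For 24 h minus 1 h (2 and 76) all 94 libraries gave 0 and 0, centring 4 and 120, the groups alone 33 genes, weights 6 and 524, and leaving out a tumor 35 to 265 genes. For 24 h minus 3 to 6 h (3 and 224) they gave 0 and 0, the groups alone 130, weights 897, and leaving out a tumor 1 to 4 and 63 to 633.

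Correlations within the studies at 1 h, 3 to 6 h and 24 h were 0.35, -0.26 and 0.40 for ACTA2 and TAGLN, 0.43, -0.36 and 0.14 for ACTA2 and CNN1, 0.76, -0.31 and 0.21 for SRF and ACTB, and 0.24, 0.00 and 0.59 for SRF and VCL. At 24 h they were -0.06 for ACTB and ACTG1 and -0.38 for TAGLN and CCN1. Without the 2 farthest tumors r was 0.37 for SRF and ACTB and 0.39 for SRF and VCL.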
